A study of Homo sapiens with 10 samples.

Results

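Gene expression was compared between RWPE-1 cells made to carry the ETS transcription factor ETV1 and RWPE-1 cells carrying only BirA, a bacterial biotin ligase. RWPE-1 cells come from normal human prostate epithelium, were immortalised, and do not form tumours. Both groups had been infected with MSCV retroviral vectors and selected as stable clones, so the controls carried BirA too, and the ETV1 cells carried BirA together with ETV1. Cells were grown under normal conditions, and total RNA extracted with Trizol was labelled as biotin cRNA and hybridised to Affymetrix HG-U133 Plus 2.0 arrays, with 3 control arrays (replicates A to C) and 4 ETV1 arrays (replicates A to D). These are 7 of the 10 arrays in the series. The members are all probe sets that name exactly 1 gene, 41091 of 54675, which stand for 19775 genes, 10523 of them with 2 or more probe sets. There are 4 arrays labelled ETV1, although 3 biological replicates are stated in the design. Since no label says that replicates were separate clones, the spread behind each p-value is that of these arrays and may be technical.

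ETV1, ETV4 and ETV5 form the PEA3 group of ETS factors, which bind DNA at a core GGAA through a shared winged helix domain and act downstream of receptor tyrosine kinases and the RAS and ERK cascade. Gene fusions that place ETV1 under androgen-responsive regulatory sequence occur in prostate cancer. In other tissues the group is known for branching growth of epithelia and for the guidance of motor axons.

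ETV1 itself rose. Probe set 217053_x_at read 72.5, 70.3 and 122 on control replicates A, B and C and 1302, 1689, 1443 and 844 on ETV1 replicates A to D, as intensities on a linear scale. The groups did not overlap, and the difference was 3.67 on the log2(intensity + 16) scale used throughout (SE 0.27, adjusted p = 0.00085). Probe sets 206501_x_at and 217061_s_at rose by 2.67 and 2.69 (SE 0.17 and 0.22). An exact permutation test of the absolute difference of means (two-sided) gave p = 0.029 for all 3, the lowest value possible with 7 arrays split this way. ETV1 replicate D was the lowest of the ETV1 arrays on all 3. The other ETV1 probe sets, 221910_at and 221911_at, differed by 0.14 and 0.19 with overlapping groups (adjusted p = 0.51 and 0.56). The IDs of the 3 that rose end in _x_at or _s_at, which, like _a_at, mark probe sets that can match several transcripts. Leaving out probe sets so marked drops all 3, and ETV4 1554576_a_at as well. Of the relatives, ETV4 probe set 1554576_a_at read 99.5, 186 and 117 on control arrays and 285, 283, 315 and 205 on ETV1 arrays, a rise of 0.97 (SE 0.22, adjusted p = 0.03). That call was lost on leaving out control replicate A or C or ETV1 replicate A, B or C (limma adjusted p of 0.07 to 0.093) and with the replicate block (0.064), and the other ETV4 probe set differed by 0.31 (adjusted p = 0.29). The dimmest ETV5 probe set, 231083_at, rose by 0.48 (adjusted p = 0.023), a call lost on leaving out control replicate A (0.059) or ETV1 replicate A or B (0.066 and 0.065), with all 10 arrays in the fit (0.079) and with the replicate block (0.091). The other 4 ETV5 probe sets differed by -0.24 to 0.16 without passing. ETV1 replicate D was again the lowest ETV1 array on both ETV4 probe sets and on those 4 ETV5 probe sets.

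**Figure D1:**
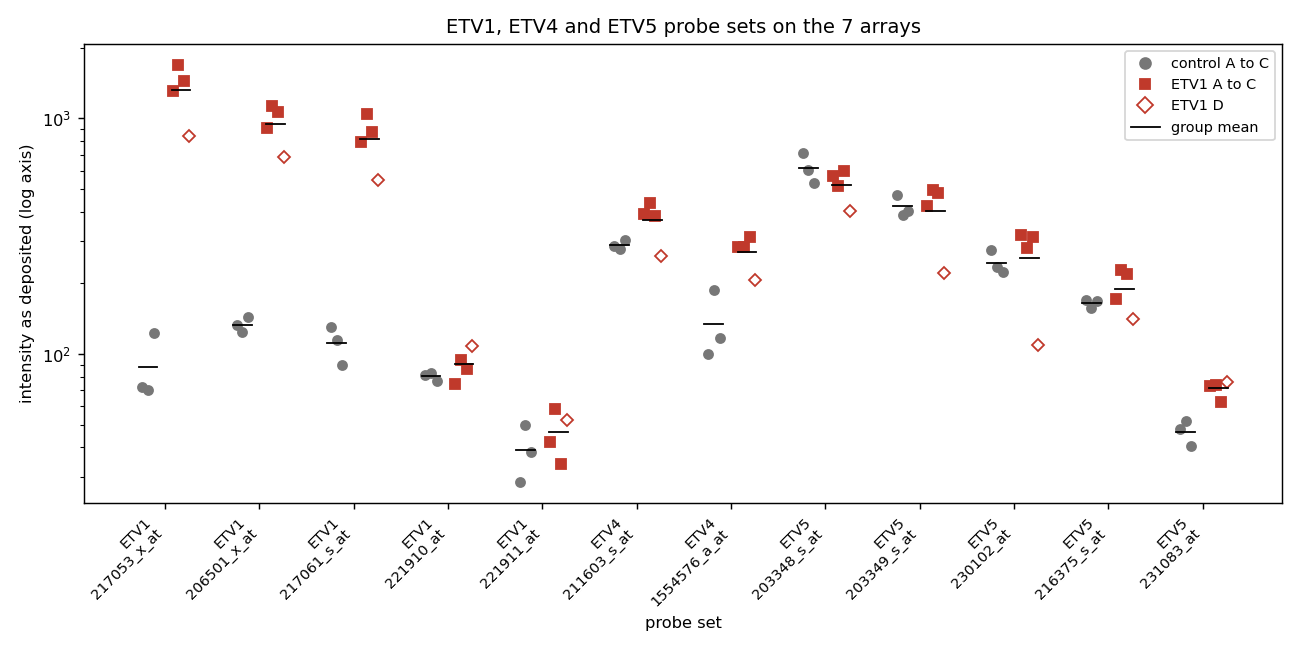
Intensity (log axis) of each ETV1, ETV4 and ETV5 probe set on the 3 control arrays (grey circles) and the 4 ETV1 arrays (red squares, replicate D as an open diamond), with group means as black lines. The first 3 ETV1 probe sets separate the groups, from at most 143 on control arrays to at least 547 on ETV1 arrays, and the remaining ETV1 probe sets do not.

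Over all probe sets, 5387 passed (13.1%; limma, Benjamini-Hochberg adjusted p of 0.05), 2489 higher in ETV1 cells (6.06%) and 2898 lower (7.05%). A gene is said here to have risen or fallen if at least 1 of its probe sets passed and none passed the other way, and to have done so with agreement if at least 2 did. By that rule 1793 genes rose (9.07%) and 2216 fell (11.2%). Agreement was seen for 444 rises (4.22% of genes with 2 or more probe sets) and 470 falls (4.47%), and probe sets of 47 genes passed both ways (0.447%). Of 961 genes with 2 or more passing probe sets, 914 (95.1%) had them all in 1 direction. Agreeing rises were larger at the top: 104 had a median change of at least 1 on the log2 scale, against 40 agreeing falls of that size. These shares differed with brightness. In the brightest 25% of genes 14.5% rose and 22.0% fell, and in the dimmest 25% 1.66% and 1.62%. The split between directions moved with single control arrays. Higher probe sets made up 46.2% of those passing, 57.6% without control replicate A, 58.5% without control replicate B and 31.7% without control replicate C, the control array with the lowest mean intensity (338, against 400 and 380). The number passing was 3311 without control replicate A, 2379 without B and 7238 without C. Without ETV1 replicate A, B or C it was 2950, 3148 or 2562. Spearman correlations over probe sets were 0.9611 to 0.972 between groups, 0.976 to 0.9845 among control arrays and 0.9797 to 0.9875 among ETV1 arrays. The 5 prime probe set of 18S ribosomal RNA read 79.4 to 159 on control arrays, 276 on ETV1 replicate D and 680 to 874 on the other ETV1 arrays. Its middle probe set read 47.4 to 86.8 on control and 137 to 247 on ETV1 arrays. The 3 prime probe set overlapped, at 383 to 790 on control and 303 to 777 on ETV1 arrays. The part of this RNA in the results was not tested.

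Most basal markers were bright in both groups, but not all. NGFR read 7.08 to 15.8 on control and 17.5 to 32.4 on ETV1 arrays, and so stayed under 50 on every array. KRT15 read 91.2 to 229 on control and 246 to 802 on ETV1 arrays. Summed over 8 basal markers, each at its brightest probe set, intensity was 22358 to 25193 on control arrays and 31014 to 32694 on ETV1 arrays. By the gene rule 5 of the 8 rose, though 0 of them did so when ETV1 replicate C was left out. DST and ITGB4 rose with agreement, on 2 of 10 and 2 of 5 probe sets. ITGA6 rose on 1 of 2, and KRT14 and NGFR on their only probe set. The brightest probe sets of ITGB4 and ITGA6 changed by 0.23 and 0.26 without passing. Of 9 luminal markers, ACP3 fell on 1 of its 3 probe sets and the others did not pass. When any control array or ETV1 replicate C or D was left out, 0 of them fell. The luminal sum was 9441 to 10996 on control and 6058 to 8675 on ETV1 arrays. KRT18 made up most of it, at 6732 to 7855 on control and 3531 to 5853 on ETV1 arrays (limma adjusted p = 0.083), while KRT8 changed by 0.06. Few markers of other cell types passed. Of 10 endothelial, 10 fibroblast, 8 leukocyte and 8 neuroendocrine markers, CLDN5 rose and COL1A1 fell on 1 of its 5 probe sets, and 5, 5, 3 and 3 of them stayed under an intensity of 50 on every array. The endothelial markers CDH5 and EMCN reached at most 17.5 and 19.4, whereas PECAM1 read 1171 to 1493. Summed intensity was 1709 to 1919 on control and 1618 to 1831 on ETV1 arrays for endothelial, 1213 to 1438 and 1305 to 1381 for fibroblast, and 712 to 797 and 653 to 788 for leukocyte markers. The neuroendocrine sum did not overlap between groups, at 730 to 791 on control and 803 to 884 on ETV1 arrays. CHGA read 265 to 312 and 332 to 426. ENO2 went the other way, also without overlap, at 84.2 to 118 on control and 67.7 to 76.1 on ETV1 arrays. INSM1, SCG3 and NCAM1 changed by -0.34, -0.33 and 0.23 with overlap, and 0 of the 8 markers passed. The part of this sum in the results was not tested. In bulk RNA, fewer cells of a type and less RNA per cell cannot be told apart.

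Genes below are grouped by function. Genes given with a change kept their call in each of the 7 fits that left out 1 array, and under the other scalings, pseudocounts, filters and weights tried where their probe set was tested, unless said otherwise; the replicate block and stricter thresholds are not counted in this. The change given for a gene is that of its brightest passing probe set. The range of a list's counts over the fits without 1 array is given beside them, and in many lists the extremes came from leaving out control replicate B or C.

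**Figure D2:**
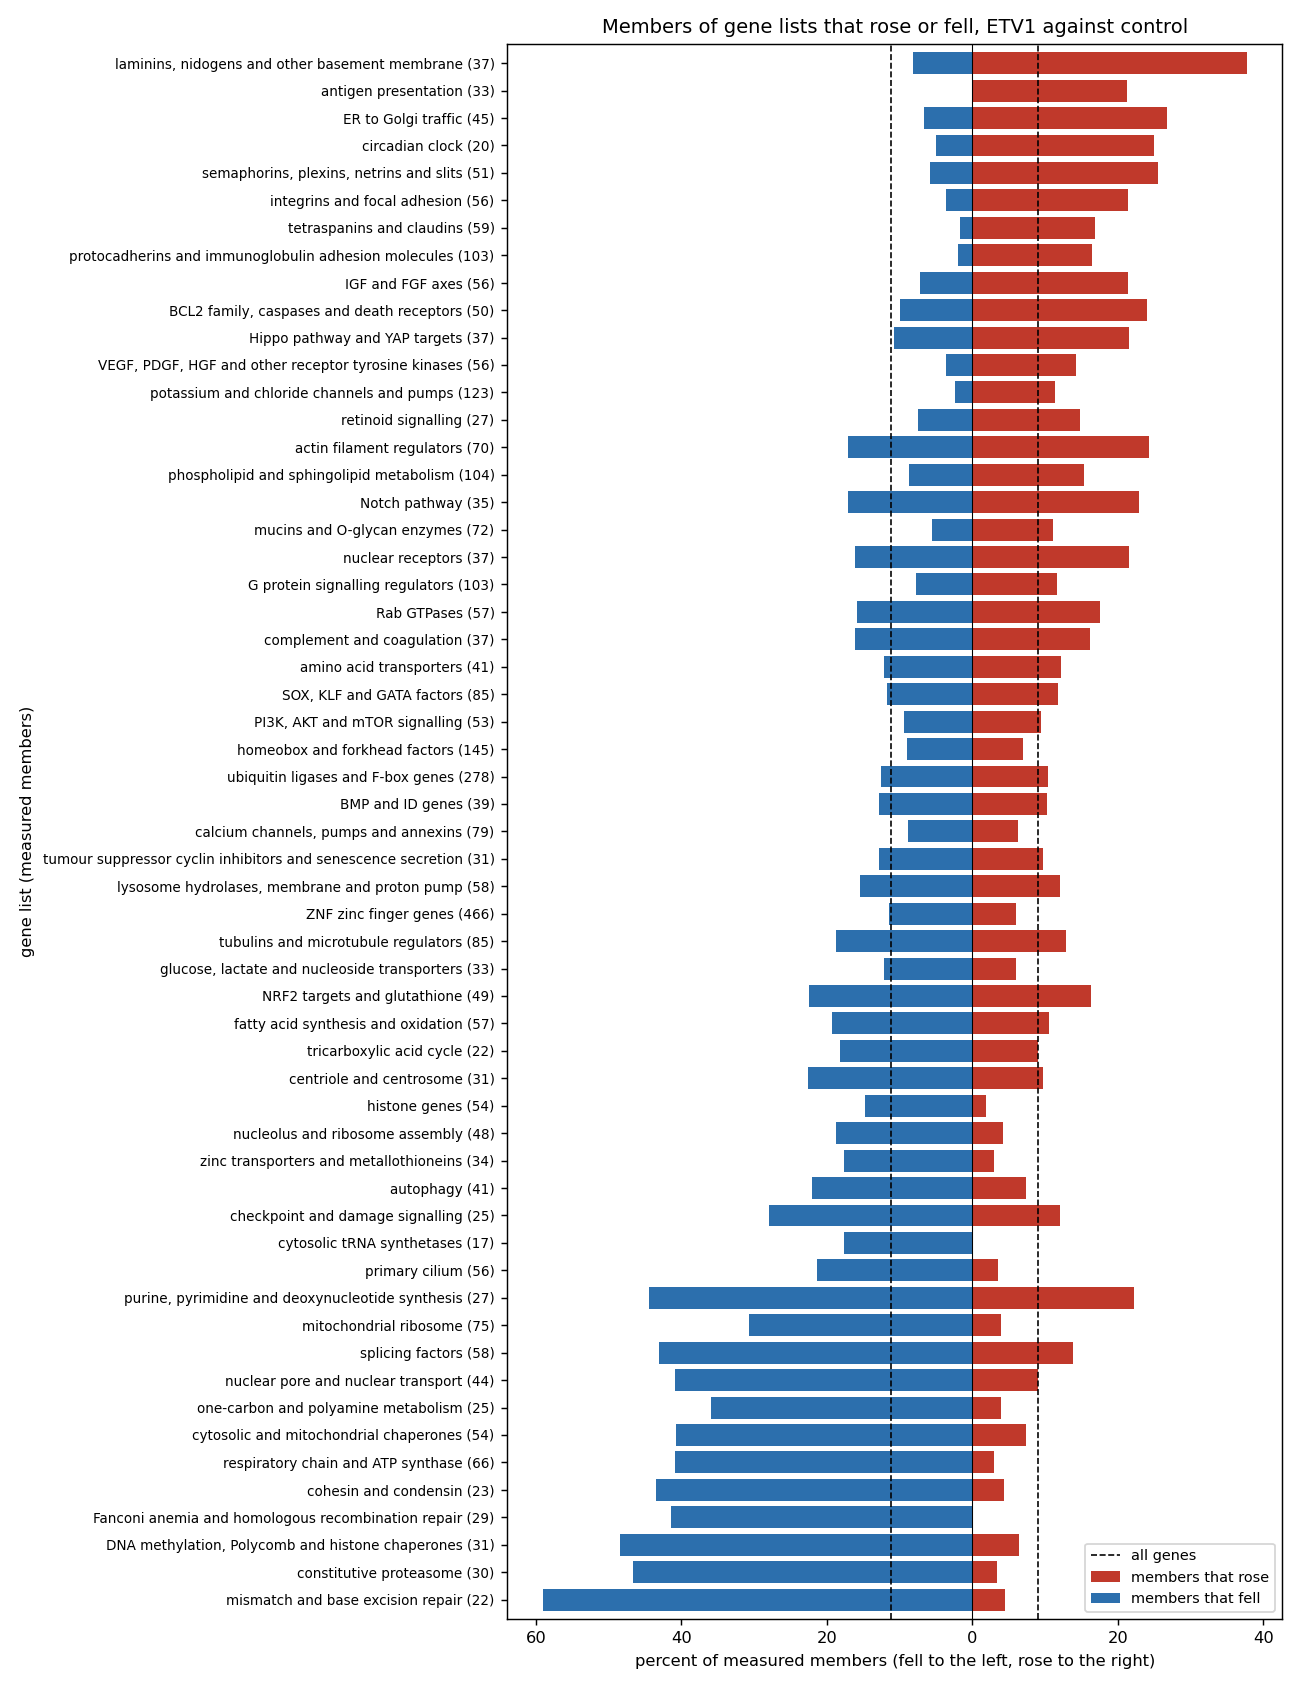
Percent of measured members of each of 57 gene lists that rose (red, to the right) or fell (blue, to the left) in ETV1 against control cells, with the number of measured members in brackets; dashed lines mark all genes, at 9.07% rising and 11.2% falling. Basement membrane genes are at the top with 37.8% rising, and mismatch and base excision repair genes at the bottom with 59.1% falling.

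DNA repair and chromatin genes fell more often than they rose in ETV1 cells. Of 22 mismatch and base excision repair genes 13 fell and 1 rose (59.1% and 4.55%, beside 11.2% and 9.07% of all genes). The median member changed by -0.29, against -0.02 for all genes, and each ETV1 array lay at -0.36 to -0.32 and each control array at -0.19 to 0.15 around the control mean. FEN1, the flap endonuclease that trims Okazaki fragments, read 1448, 1264 and 959 on control arrays and 563, 524, 543 and 649 on ETV1 arrays. These groups did not overlap (-1.07, SE 0.15, adjusted p = 0.0066), and both FEN1 probe sets fell. MSH6, which recognises mismatched bases, fell on 3 of 4 probe sets (-0.84 on the brightest of them, SE 0.14). Without control replicate B 5 members of the list fell, and without control replicate C 16 did.

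Homologous recombination and Fanconi anemia genes showed 12 falls and 0 rises among 29 (41.4% fell), with a median of -0.23. The count of falls was 6 without control replicate B and 17 without control replicate C, and the list medians of single arrays overlapped (-0.31 to -0.15 in ETV1, -0.22 to 0.12 in control). RMI1, which helps dissolve recombination intermediates, had 1706, 1589 and 1040 on control arrays and 432, 443, 473 and 441 on ETV1 arrays (-1.63, SE 0.17, adjusted p = 0.0025), so that each ETV1 array was below every control array by a wide margin. EXO1, the exonuclease that resects DNA ends, fell by 1.38 (SE 0.14). Both of the probe sets of BRIP1, a helicase of crosslink repair, fell (-0.80 and -0.67). Among 25 checkpoint genes 7 fell and 3 rose (28% and 12%), with 3 to 13 falls and 0 to 3 rises without 1 array. The exceptions in direction included the phosphatase CDC25A, which rose on 2 of 3 probe sets (0.62, SE 0.13, adjusted p = 0.024) but did not pass without ETV1 replicate A, B or C. In the same list DTL, the substrate receptor of a ubiquitin ligase active during DNA synthesis, read 829, 758 and 654 on control arrays and 267, 272, 298 and 261 on ETV1 arrays (-1.39, SE 0.10, adjusted p = 0.00096), and both of its probe sets fell.

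Transcripts of both subunits of ribonucleotide reductase, which makes deoxynucleotides, were lower. RRM2 read 1923, 1804 and 1471 on control arrays and 492, 520, 519 and 560 on ETV1 arrays, without overlap (-1.69, SE 0.11, adjusted p = 0.00068), and its second probe set changed by -2.18. RRM1 fell by 0.95 and 0.86 on its pair of probe sets, and thymidine kinase TK1 by 0.82 and 1.03. In the wider list of 27 nucleotide synthesis genes 12 fell and 6 rose (44.4% and 22.2%), with 9 to 14 falls and 3 to 6 rises when 1 array was left out. Of these genes 21 were in the brightest 25%.

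Other chromatin lists were examined in the same way. Of 31 genes of DNA methylation, Polycomb and histone chaperones 15 fell and 2 rose (48.4% and 6.45%), with 11 falls without control replicate B and 21 without control replicate C. HELLS, a helicase needed for DNA methylation, read 2346, 2232 and 1617 on control arrays and 663, 561, 582 and 651 on ETV1 arrays (-1.71, SE 0.15, adjusted p = 0.0013). It passed on 2 of 5 probe sets. The histone chaperones NASP (-1.33, SE 0.15) and CHAF1A (-1.10, SE 0.12) fell on 2 of 3 and 3 of 4 probe sets, and TET3, which oxidises methylcytosine, on 2 of 3 (-1.09, SE 0.13). The bromodomain ATPase ATAD2 had 862, 843 and 653 on control arrays and 245, 261, 266 and 236 on ETV1 arrays, and each of its 4 probe sets fell (-1.57 on the shown one, SE 0.12). MCM4 and MCM10, of the replicative helicase and its activation, fell on 3 of 5 and 3 of 3 probe sets, and WDHD1, a replisome adaptor, on 3 of 3. Cohesin and condensin genes, which hold and fold chromosomes, gave 10 falls and 1 rise of 23 (43.5% and 4.35%), with 3 falls without control replicate B or ETV1 replicate A. SMC3, a core cohesin subunit, fell on 3 of 4 probe sets (-1.05, SE 0.13). Of 54 histone genes 8 fell and 1 rose (14.8% and 1.85%), with 4 to 11 falls without 1 array, and their median of -0.02 equalled that of all genes. H2AZ1 fell on both probe sets (-0.77 and -0.82), and the single probe set of H3-3A changed by -1.45 (SE 0.10).

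Promoter sequence was examined because genes of DNA synthesis are known targets of E2F factors, and because ETV1 recognises an ETS motif. RefSeq promoters (GRCh38.p14, 250 bases before to 50 after each start) were matched for 15360 measured genes, and searched on both strands for the E2F motifs TTTCCCGC, TTTCGCGC, TTTGCCGC or TTTGGCGC and for the ETS motif CCGGAAGT. Each of the motifs was searched on its own, so a promoter can hold both. An E2F motif stood in 11.4% of 396 promoters of agreeing falls, 4.52% of 354 promoters of agreeing rises, 4.37% of all measured genes and 3.33% of all 27305 promoters in the table. The ETS motif stood in 6.57% of agreeing falls, 5.37% of agreeing rises, 6.26% of measured genes and 4.44% of all promoters, so that its share hardly differed between rises and falls. These shares are descriptions, without a test. The sequences below are the bases before the start around a match, on the strand of the gene, with the match in capitals. They show 4 falls with an E2F match (in RBL1 a pair of them) and the rise of CDC25A with the same letters, then the rise of LRRC8A and 2 falls with the ETS match. These are examples. E2F matches before the start also stood in the falls ATP5MG, ATG2A, MGST1 and YWHAB and the rises NF2, BSG, AKAP13 and PDGFA. ETS matches also stood in the falls MRPL51, COX5B, PSMD12, ITGB1BP1 and IFT81 and the rises ARHGDIA and NR6A1. Only part of the named genes was looked through for these examples, so a gene missing here may still have a match. TUBG1, ATG2A, MRPL51, IFT81 and BSG, each with 1 passing probe set, are not among the agreeing falls and rises.
DTL, chr1:212035695-212035747, plus strand: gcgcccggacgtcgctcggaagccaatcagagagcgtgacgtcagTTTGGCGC
HELLS, chr10:94545667-94545764, plus strand: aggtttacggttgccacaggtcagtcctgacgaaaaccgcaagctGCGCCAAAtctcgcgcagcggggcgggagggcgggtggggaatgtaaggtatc
TUBG1, chr17:42609607-42609682, plus strand: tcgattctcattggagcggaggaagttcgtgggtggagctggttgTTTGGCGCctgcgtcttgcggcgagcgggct
RBL1, chr20:37095998-37096068, minus strand: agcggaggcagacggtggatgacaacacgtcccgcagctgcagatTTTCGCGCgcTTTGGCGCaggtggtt
CDC25A, chr3:48188418-48188506, minus strand: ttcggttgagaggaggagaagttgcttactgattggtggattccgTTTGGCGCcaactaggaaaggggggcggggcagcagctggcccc
LRRC8A, chr9:128882067-128882132, plus strand: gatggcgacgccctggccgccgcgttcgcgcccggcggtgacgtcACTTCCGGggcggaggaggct
NASP, chr1:45583934-45584031, plus strand: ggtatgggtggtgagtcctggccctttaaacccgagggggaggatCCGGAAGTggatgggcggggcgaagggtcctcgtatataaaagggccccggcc
DDX21, chr10:68956065-68956162, plus strand: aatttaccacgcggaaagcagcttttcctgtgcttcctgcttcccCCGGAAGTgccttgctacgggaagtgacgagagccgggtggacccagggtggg
The HELLS and LRRC8A matches read in the reverse complement, and HELLS holds a second E2F match outside the stretch shown. A match is a description of letters and not of a bound site. TUBG1, the gamma-tubulin of centrosomes, fell on its single probe set (-0.84, SE 0.14). RBL1, the retinoblastoma relative p107, fell on 2 of 4 probe sets (-0.80, SE 0.17), and lost the call without control replicate A or B or ETV1 replicate A, B or C. DDX21, a nucleolar RNA helicase, fell on 2 of 2 (-0.58, SE 0.09).

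Genes of the nuclear envelope, mitochondria, proteasome and RNA processing also had more falls than rises, and most of these genes were bright. Of 44 nuclear pore and transport genes 18 fell and 4 rose (40.9% and 9.09%), and 34 of the 44 were in the brightest 25%. NUP210, a membrane nucleoporin, read 267, 243 and 219 on control arrays and 58.9, 58.0, 65.8 and 58.8 on ETV1 arrays, far apart and with little spread (-1.76, SE 0.09, adjusted p = 0.00041). It fell on 4 of 5 probe sets, and the importin IPO9 on 4 of 4 (median -1.07). RANGAP1, the activator of Ran GTPase, rose on 2 of 3 (0.79, SE 0.09). The falls numbered 5 without control replicate B or ETV1 replicate C and 24 without control replicate C.

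Of 66 respiratory chain and ATP synthase genes 27 fell and 2 rose (40.9% and 3.03%). Of the 66 genes 65 were in the brightest 25%, where 22.0% of genes fell. After quantile normalization this list had 28 falls and 8 rises, and its median moved from -0.27 to -0.15. Single ETV1 arrays lay at -0.32 to -0.20 and control arrays at -0.18 to 0.13, so the list medians were close to touching. ATP5MG and ATP5ME, both small ATP synthase subunits, moved in opposite directions: ATP5MG fell on 3 of 4 probe sets (-0.69, SE 0.08) and ATP5ME rose on both (0.90, SE 0.14). Mitochondrial ribosome genes gave 23 falls and 3 rises of 75 (30.7% and 4%), with list medians that overlapped (-0.33 to -0.20 in ETV1, -0.22 to 0.20 in control). Of these genes 68 were in the brightest 25%, where 22.0% of genes fell. After quantile normalization the list had 34 falls and 9 rises, and its median moved from -0.3 to -0.19. MRPL51 fell (-1.14, SE 0.13). MRPL12 rose from 200, 218 and 197 on control arrays to 671, 690, 610 and 519 on ETV1 arrays on 1 probe set (1.52, SE 0.12), whereas its other probe set changed by -0.06. Without control replicate B the falls numbered 6 for the respiratory chain and 5 for the mitochondrial ribosome, and without control replicate C 43 for each.

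The constitutive proteasome, the cell's main protease for tagged proteins, had 14 falls and 1 rise among 30 members (46.7% and 3.33%), with a median of -0.39. All 30 were in the brightest 25%, where 22.0% of genes fell. After quantile normalization there were 21 falls and 2 rises, and the median was -0.27. ETV1 arrays lay at -0.47 to -0.24 and control arrays at -0.23 to 0.18. The count of falls was 2 without control replicate B and 23 without control replicate C. PSMB4, a core particle subunit, fell on 2 of 3 probe sets (-0.51, SE 0.09), and did not pass without control replicate B or ETV1 replicate C. Among 54 chaperones 22 fell and 4 rose (40.7% and 7.41%), and 34 of the 54 were in the brightest 25%. HSP90AA1, the inducible cytosolic HSP90, fell on 4 of 4 probe sets (-0.84 on the shown one, SE 0.11). The falls among chaperones numbered 10 without control replicate B and 30 without control replicate C. Of 58 splicing factors 25 fell and 8 rose (43.1% and 13.8%), with 11 to 37 falls when 1 array was left out, and 52 of the 58 were in the brightest 25%. Here the direction differed by gene. HNRNPM (-1.08, SE 0.15) and HNRNPU (-0.67, SE 0.09) fell on 2 probe sets each, and the tissue-specific regulators RBFOX2 (0.90, SE 0.08) and PTBP3 (0.90, SE 0.16) rose on 2 of 4 and 3 of 5. Of 48 nucleolar genes 9 fell and 2 rose (18.8% and 4.17%), with 4 to 17 falls without 1 array. As 33 of them were in the brightest 25%, where 22.0% of genes fell, this share was near the background of bright genes. NOLC1 fell on 3 of 3 probe sets (-1.03, SE 0.11), while the helicase DDX10 rose on 1 of 2 (1.43, SE 0.22). The 17 cytosolic tRNA synthetases, all in the brightest 25%, had 3 falls and 0 rises (17.6% fell), with 1 to 5 falls without 1 array, and their median of -0.14 became 0.01 after quantile normalization. EPRS1, a fused synthetase, fell on 2 of 3 probe sets (-0.93, SE 0.11).

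**Figure D3:**
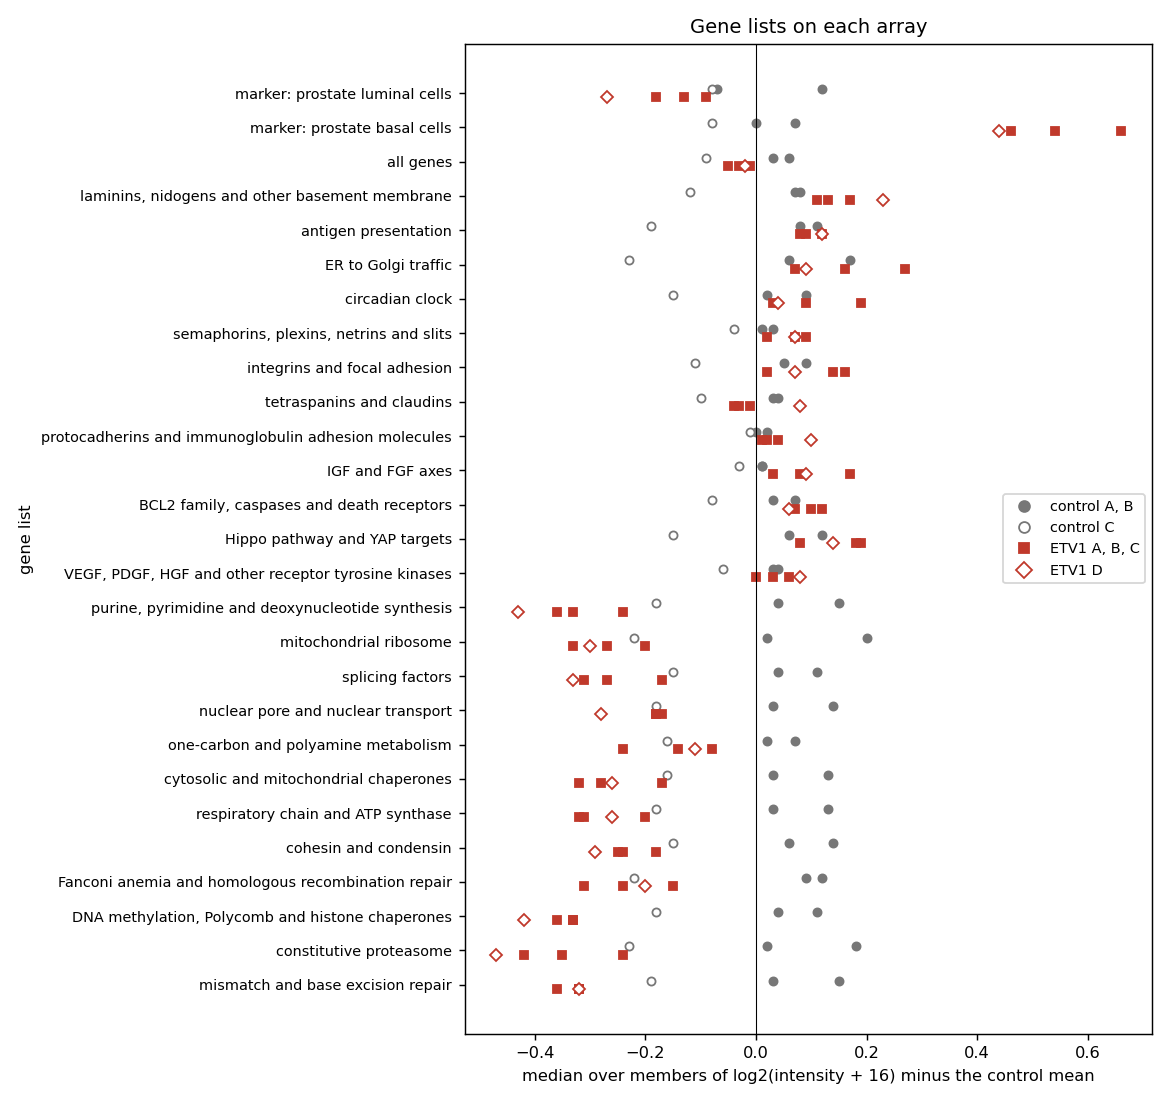
Median over list members of log2(intensity + 16) minus the control mean, on each control array (grey circles, replicate C open) and each ETV1 array (red squares, replicate D an open diamond), for the 12 of these lists most tilted to falls, the 12 most tilted to rises, all genes and 2 marker lists. Control replicate C lies lowest of the control arrays in each of these lists, and the basal markers lie at 0.44 to 0.66 on ETV1 arrays and -0.08 to 0.07 on control arrays.

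Lipid synthesis and detoxification changed in single genes more than as lists. SCD, the desaturase that makes monounsaturated fatty acids, read 7846, 7615 and 6630 on control arrays and 2509, 3045, 2823 and 3456 on ETV1 arrays (-1.32, SE 0.13, adjusted p = 0.0019), with no overlap. ACLY, which makes cytosolic acetyl-CoA, fell on 3 of 3 probe sets (-0.91, SE 0.12), INSIG1, a brake on sterol synthesis, on 3 of 3 (-0.68, SE 0.12), LPIN1, a phosphatidate phosphatase, on 2 of 3 (-0.56, SE 0.10), and DBI, an acyl-CoA binding protein, on 3 of 3 (-1.21, SE 0.12). In the list of 57 genes of fatty acid synthesis and oxidation 11 fell and 6 rose (19.3% and 10.5%), with 5 to 18 falls when 1 array was left out. Phospholipid and sphingolipid genes leaned to rises, 16 against 9 falls among 104 (15.4% and 8.65%), with 8 to 15 rises without 1 array. The acyltransferase LPCAT4 and the phosphatase PLPP5 rose on 4 of 5 and 4 of 4 probe sets (1.45 and 1.35), as did KDSR, of ceramide synthesis, on 4 of 4 (1.13, SE 0.17). Among 49 genes of glutathione and NRF2 response 11 fell and 8 rose, with 5 to 12 falls and 3 to 6 rises without 1 array. GPX3, a secreted glutathione peroxidase, read 159, 211 and 329 on control arrays and 1253, 1446, 1414 and 977 on ETV1 arrays (2.41, SE 0.24, adjusted p = 0.0023), and its second probe set rose by 4.29. The efflux pump ABCC3 fell on 3 of 5 (-1.63, SE 0.18) and MGST1, a membrane glutathione transferase, on 3 of 5 (-0.68, SE 0.10). The metallothioneins MT1E and MT1F fell on both probe sets each (-0.56 and -0.55 on the shown ones), with the caution that metallothionein copies are nearly identical and probe sets may not separate them.

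Among rises, genes of the basement membrane stood out in number. Of 37 laminin, nidogen and related genes 14 rose and 3 fell (37.8% and 8.11%), 7 of the rises with agreement. The median was 0.20, and ETV1 arrays lay at 0.11 to 0.23 and control arrays at -0.12 to 0.08. Without control replicate B or ETV1 replicate C 9 rose, and without control replicate C 15. SMOC1, a calcium-binding basement membrane protein, read 38.1, 14.2 and 43.3 on control arrays and 231, 224, 253 and 161 on ETV1 arrays (2.33, SE 0.26, adjusted p = 0.0029). The laminin chain LAMB1 rose on 2 of 2 probe sets (1.31, SE 0.17), the matrix glycoprotein SPARC on 2 of 2 (1.46, SE 0.20) and the type IV collagen chain COL4A6 on 2 of 3 (1.07, SE 0.11). Outside the list, VCAN, a large matrix proteoglycan, had 117, 94.5 and 148 on control arrays and 560, 636, 535 and 446 on ETV1 arrays, and each of its 5 probe sets rose (2.05 on the brightest, SE 0.17). THBS1, the matrix glycoprotein thrombospondin, rose on 7 of 7 probe sets (1.28 on the brightest). Fibronectin, FN1, read 1451, 1311 and 1059 on control arrays and 3481, 4114 and 3929 on ETV1 replicates A to C, but 1619 on replicate D. It rose on 4 of 7 probe sets (1.28, SE 0.33, adjusted p = 0.044), and did not pass when any array other than ETV1 replicate D was left out, nor with a pseudocount of 1.

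Adhesion genes also rose more often than they fell. Of 56 integrin and focal adhesion genes 12 rose and 2 fell (21.4% and 3.57%), with 4 to 14 rises when 1 array was left out, fewest without ETV1 replicate C. FERMT2, a kindlin that activates integrins, rose on 3 of 3 probe sets (1.02, SE 0.17) and did not pass without control replicate B. Actin regulators went both ways, with 17 rises and 12 falls of 70 (24.3% and 17.1%), and 10 to 19 rises and 6 to 20 falls without 1 array. The scaffold PALLD rose on 3 of 4 probe sets (1.55, SE 0.14) and CALD1, which binds actin and myosin, on 5 of 11 (1.05, SE 0.12), whereas ENAH, which extends filaments at the leading edge, fell on 3 of 6 (-1.18, SE 0.11). Outside the lists LIMCH1, an activator of non-muscle myosin, had 213, 212 and 160 on control arrays and 842, 850, 803 and 818 on ETV1 arrays (2.01, SE 0.11, adjusted p = 0.00045), with 3 of 4 probe sets passing.

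Axon guidance cues, which also steer epithelial and endothelial cells, had 13 rises and 3 falls among 51 semaphorin, plexin, netrin and slit genes (25.5% and 5.88%), with 10 to 12 rises when 1 array was left out. SEMA3A, a secreted repellent, read 88.9, 106 and 137 on control arrays and 474, 571, 497 and 256 on ETV1 arrays (1.84, SE 0.27, adjusted p = 0.0076), and all 3 of its probe sets rose. Its receptor NRP1, a co-receptor for VEGF as well, read 275, 228 and 233 on control arrays and 816, 926, 919 and 452 on ETV1 arrays, and rose on 3 of 4 (1.55, SE 0.25). SLIT2, a ligand of ROBO receptors, rose on 2 of 3 (1.74, SE 0.21). In all 3 genes the groups were separate and ETV1 replicate D was the ETV1 array nearest to control. SLITRK6, a neuronal adhesion protein, was even across ETV1 arrays, at 1605, 1537, 1431 and 1597, against 494, 438 and 336 on control arrays (1.84, SE 0.13, adjusted p = 0.00087), and rose on 3 of 3 probe sets. It was counted in the list headed protocadherins and immunoglobulin adhesion molecules, although it is neither. Of the 103 genes in that list 17 rose and 2 fell (16.5% and 1.94%), with 10 to 17 rises when 1 array was left out. In the same list CD99, also neither, rose on both probe sets (1.22, SE 0.18).

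In the Notch pathway 8 of 35 genes rose and 6 fell, a mixed picture (22.9% and 17.1%, beside 9.07% and 11.2% of all genes). Without 1 array there were 3 to 7 rises and 4 to 8 falls. The ligand JAG1 rose from 1335, 1319 and 1145 to 3526, 3680, 3519 and 2451, on 4 of 6 probe sets (1.35, SE 0.16, adjusted p = 0.0034). The gamma-secretase subunit PSEN2 fell on 3 of 3 (-0.93, SE 0.09), and of the hairy-related repressors HES2 rose on 2 of 3 (0.86, SE 0.12) and HEY1 fell on 1 of 2 (-0.63, SE 0.10). In the TGF-beta family the ligand TGFB2 rose on 3 of 5 probe sets (0.85, SE 0.10) and the signal transducer SMAD3 on 4 of 4 (1.17, SE 0.13). FST, a secreted antagonist of activins, read 317, 274 and 280 on control arrays and 2637, 3766, 3476 and 825 on ETV1 arrays. It rose on 3 of 3 (2.93, SE 0.50, adjusted p = 0.012), but did not pass without control replicate B (2.89). BMPR1B, a BMP receptor, fell on 1 of 3 (-0.87, SE 0.13).

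Growth factors and receptors had more rises than falls: 12 against 4 of 56 in the IGF and FGF axes (21.4% and 7.14%) and 8 against 2 of 56 among VEGF, PDGF, HGF and other tyrosine kinase genes (14.3% and 3.57%). Without 1 array the rises numbered 8 to 13 and 4 to 8. The first list also holds the sterol regulators INSIG1 and INSIG2, and INSIG1 is among its 4 falls. PGF, a placental ligand of the VEGF receptor FLT1, read 40.2, 13.2 and 36.9 on control arrays and 679, 746, 707 and 481 on ETV1 arrays, from dim to well lit (3.90, SE 0.26, adjusted p = 0.00069). Its other probe set differed by -0.18, so the rise rests on 1 of 2. The ligand PDGFA rose on both probe sets, from 1346, 1127 and 871 to 2900, 2884, 2770 and 2556 (1.32, SE 0.15). BDNF, a neurotrophin, rose on 1 of 2 (1.86, SE 0.16). The receptor IGF1R rose on 3 of 5 (1.15, SE 0.15), and FLRT2, which binds FGF receptors and guidance receptors, on 2 of 3 (1.10, SE 0.12).

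Genes of apoptosis rose more often than they fell. Of 50 BCL2 family, caspase and death receptor genes 12 rose and 5 fell (24% and 10%), with 7 rises without control replicate B and 15 without ETV1 replicate D. The anti-apoptotic members BCL2L1 and MCL1 rose on 3 of 4 and 3 of 6 probe sets. BCL2L1 read 369, 608 and 536 on control arrays and 1184, 1483, 1315 and 1061 on ETV1 arrays (1.31, SE 0.19, adjusted p = 0.0068), and MCL1 changed by 1.01 (SE 0.15). The death receptor TNFRSF10A rose as well, on 3 of 3 (0.95, SE 0.15). BCL2L11, the pro-apoptotic BIM, read 694, 698 and 496 on control arrays and 262, 250, 265 and 407 on ETV1 arrays and fell on 3 of 7 (-1.06, SE 0.20, adjusted p = 0.016), but lost the call without ETV1 replicate A or C or control replicate A or B. The list of 31 tumour suppressor, cyclin inhibitor and senescence genes had 3 rises and 4 falls (9.68% and 12.9%), near the 9.07% and 11.2% of all genes. Without 1 array there were 2 to 5 rises and 1 to 8 falls. In it, the cell cycle inhibitor CDKN1C rose on 3 of 5 probe sets (0.90, SE 0.15) and CDKN2B on 1 of 2 (0.96, SE 0.14). CCNG2, an unusual cyclin linked to cell cycle arrest, read 444, 377 and 278 on control arrays and 1496, 1537, 1374 and 1036 on ETV1 arrays, and rose on 4 of 5 (1.86, SE 0.19, adjusted p = 0.0025).

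Transcripts of several surface proteins that shield cells from complement and clotting were higher. CD55, which breaks up complement convertases, rose on 3 of 3 probe sets (1.33, SE 0.16), and CD59, which blocks the membrane attack complex, on 4 of 5 (1.35, SE 0.20). THBD, the endothelial anticoagulant thrombomodulin that keratinocytes also make, read 491, 400 and 351 on control arrays and 1971, 2323, 2082 and 1042 on ETV1 arrays (2.07, SE 0.28, adjusted p = 0.0055). The list of 37 complement and coagulation genes as a whole had 6 rises and 6 falls (16.2% each, beside 9.07% and 11.2% of all genes). Without 1 array there were 5 to 7 rises and 0 to 8 falls. Antigen presentation had 7 rises and 0 falls of 33 (21.2% rose), with 3 to 8 rises and 0 to 6 falls when 1 array was left out; HLA-E rose on 1 of 3 (0.78, SE 0.13) and the chaperone PDIA3 on 1 of 3 (0.68, SE 0.11). HLA genes are closely related in sequence and probe sets may be shared between them. CD24, a heavily glycosylated surface protein, rose on 6 of 6 probe sets, from 1228, 1089 and 910 to 3263, 3484, 3156 and 3692 (1.65, SE 0.12, adjusted p = 0.00086). SLFN5, of the interferon-inducible Schlafen family, rose on 6 of 6 (1.78, SE 0.19). TM4SF1, a tetraspanin relative of migrating cells, read 244, 304 and 247 on control arrays and 1087, 1073, 1089 and 1475 on ETV1 arrays (2.09, SE 0.14, adjusted p = 0.00074). Among 59 tetraspanins and claudins 10 rose and 1 fell (16.9% and 1.69%), with 4 to 10 rises without 1 array. The tight junction protein CLDN1 rose on both probe sets (0.80, SE 0.09), and TSPAN6 was the 1 fall (-0.93, SE 0.10).

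Channels and pumps were mostly quiet, with 14 rises and 3 falls of 123 potassium and chloride genes (11.4% and 2.44%), near the share of rises among all genes; without 1 array there were 10 to 15 rises and 2 to 8 falls. LRRC8A, the obligatory subunit of the volume-regulated anion channel, read 1860, 1660 and 1231 on control arrays and 4406, 4704, 4444 and 4139 on ETV1 arrays, and rose on 2 of 2 probe sets (1.49, SE 0.14, adjusted p = 0.0019). KCNMA1, the large-conductance calcium-activated potassium channel, rose from 70.4, 71.3 and 74.0 to 244, 283, 256 and 237 on 1 of 4 (1.62, SE 0.09), and ATP1B1, a subunit of the sodium pump, on 1 of 2 (1.15, SE 0.19). CA12, a membrane carbonic anhydrase, rose on 5 of 7 probe sets (1.61, SE 0.24), with 820 on ETV1 replicate D, 425 to 447 on the other ETV1 arrays and 143 to 178 on control arrays. Of 41 amino acid transporters 5 rose and 5 fell (12.2% each, beside 9.07% and 11.2% of all genes). Without 1 array there were 3 to 8 rises and 3 to 6 falls. The neutral amino acid carrier SLC7A8 fell on 3 of 5 (-1.01, SE 0.13), and SLC5A3, which carries the osmolyte myo-inositol, on 2 of 4 (-1.08, SE 0.11).

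In the secretory pathway 12 of 45 genes of ER to Golgi traffic rose and 3 fell (26.7% and 6.67%), with 3 rises without ETV1 replicate B and 10 without control replicate A or C. GOLGA4, a Golgi tether, rose on 2 of 2 (1.03, SE 0.13), and the coat protein SEC24D on 1 of 3 (1.41, SE 0.24). The enzymes GALNT6 and GALNT10, which start O-linked glycans, rose on 2 of 2 and 2 of 3 probe sets (1.08 and 1.18). GALNT6 had little spread, at 145, 132 and 143 against 314, 317, 312 and 309. The lysosomal protease CTSC rose on 3 of 4 (1.36, SE 0.11). Genes of the primary cilium leaned down, with 12 falls and 2 rises of 56 (21.4% and 3.57%) and none with agreement; IFT81, of the intraflagellar transport machinery, fell on 1 of 2 (-1.06, SE 0.11) and the small GTPase ARL3 on 1 of 3 (-0.90, SE 0.12). Falls numbered 4 without control replicate B and 19 without control replicate C.

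Transcription factors of different families changed singly. SOX9, which marks progenitors in prostate buds, read 353, 324 and 250 on control arrays and 1050, 1151, 1078 and 863 on ETV1 arrays, and rose on both probe sets (1.70, SE 0.15, adjusted p = 0.0014). SOX7 rose on both (1.06, SE 0.09), FOXP1 on 5 of 8 (0.95, SE 0.13) and ZNF395 on 2 of 3 (1.53, SE 0.12). CUX2, a homeodomain factor of cortical neurons, rose from 24.7, 27.6 and 53.9 to 227, 272, 261 and 221 on 1 of 2 (2.39, SE 0.20). HOXD10 fell on 3 of 3 (-0.88, SE 0.11), the vitamin D receptor VDR on 3 of 4 (-0.84, SE 0.13), ZNF281 on 2 of 3 (-1.13, SE 0.15), and the zinc finger protein CXXC5 on 3 of 3 (-1.50, SE 0.19). As families, homeobox and forkhead genes had 10 rises and 13 falls of 145 (6.90% and 8.97%) and ZNF genes 28 and 53 of 466 (6.01% and 11.4%). SOX, KLF and GATA factors had 10 of each among 85 (11.8%), and nuclear receptors 8 rises and 6 falls of 37 (21.6% and 16.2%). Without 1 array falls numbered 4 to 19, 20 to 82, 4 to 18 and 1 to 7 in these lists, and rises 3 to 10, 11 to 26, 4 to 8 and 4 to 8. Clock genes were also examined. Of 20 such genes 5 rose, 4 with agreement, and 1 fell (25% and 5%). BHLHE40, a repressor that feeds back on CLOCK and BMAL1, read 634, 515 and 431 on control arrays and 1956, 2317, 1954 and 2015 on ETV1 arrays (1.95, SE 0.14, adjusted p = 0.00084). NR1D2, a nuclear receptor of the clock's second loop, rose on both probe sets (1.53, SE 0.16), as did the kinase CSNK1E (1.03, SE 0.09). The rises numbered 4 to 5 when 1 array was left out.

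**Figure D4:**
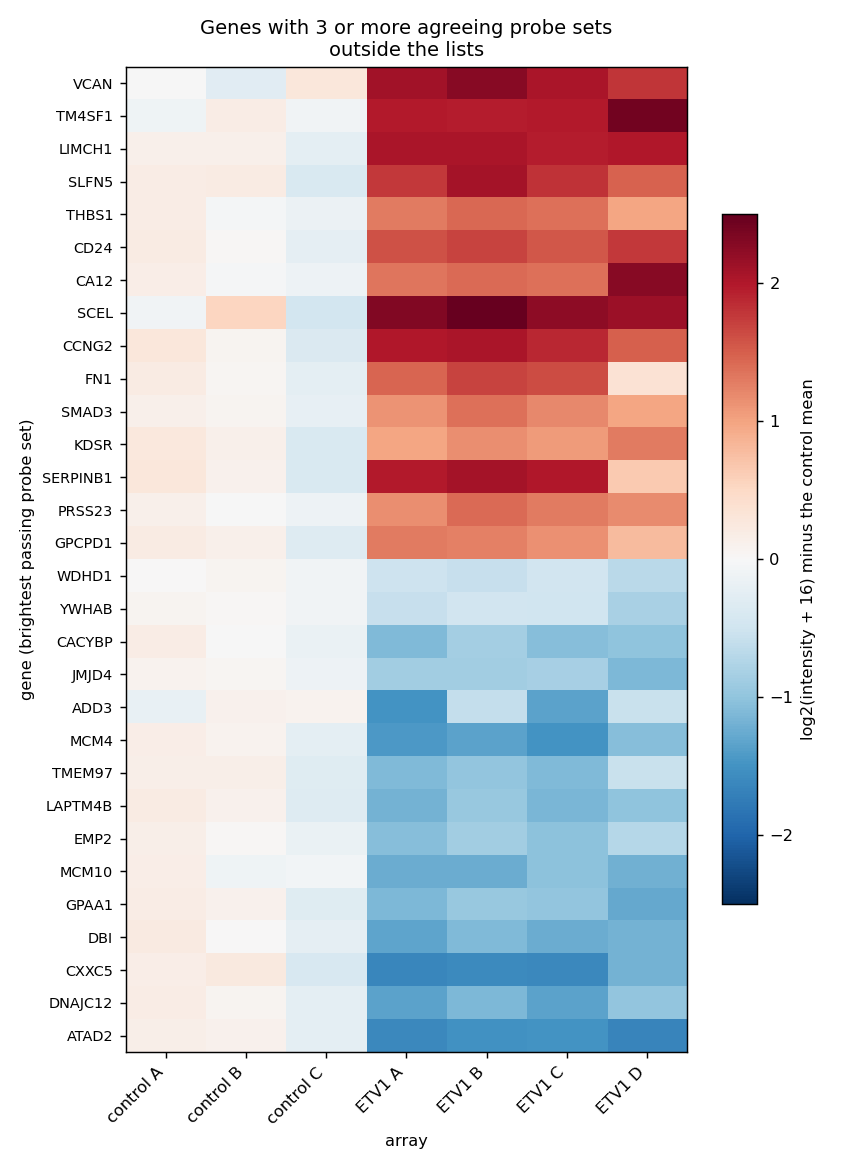
Heat map of log2(intensity + 16) minus the control mean on the 7 arrays, for the 15 rises and 15 falls outside the lists with at least 3 agreeing probe sets, ordered by median change. FN1 and SERPINB1 are paler on ETV1 replicate D, where they read 1619 and 379, and TM4SF1 and CA12 are darker there.

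The 4 ETV1 arrays were not alike in the size of these changes. Over the 444 agreeing rises, the median difference from the control mean was 0.82, 0.94, 0.89 and 0.76 on ETV1 replicates A to D. Replicate D was the ETV1 array nearest to control for 246 of them (55.4%), against 125, 29 and 44 for replicates A, B and C. Over the 470 agreeing falls the medians were -0.74, -0.65, -0.70 and -0.73, and the nearest array was most often replicate B, for 225 genes (47.9%), with 132 for replicate D. So the array with the lowest ETV1 signal was most often nearest to control among rises and not among falls; whether the level of ETV1 played a part was not tested.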

How the data were processed

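Affymetrix HG-U133 Plus 2.0 arrays, 7 in number, measured total RNA. The deposited values are linear probe set intensities; the summarisation, normalization and genome build are not given in the sources used here. Values were used as deposited, with no further normalization, since the median intensity of the 7 arrays lay at 70.93 to 75.51. Genes were named from the platform annotation: of 54675 probe sets 41091 name 1 gene, 1801 several and 11721 none, and 41037 of the 41091 matched a RefSeq gene.

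The comparison was a fit of log2(intensity + 16) on the 7 arrays with limma 3.58.1 (lmFit and eBayes, 5 residual degrees of freedom, R 4.3.3), with no filter and Benjamini-Hochberg adjustment over 41091 probe sets. The 3 other arrays of the series entered an alternative fit only. Exact permutation tests compared the absolute difference of means. On simulated data of 41091 probe sets, 200 of the brighter ones were changed. Among these a log2 change of 1 was recovered in 86% of cases and one of 0.5 in 4%, with 6 false calls elsewhere. Far more probe sets passed in the real data, 5387, so these rates do not carry over to it.

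The members and gene lists were chosen with earlier results of these data known. Named genes are ETV1, ETV4 and ETV5, then up to 4 per list (agreeing genes first, then genes with 1 passing probe set, by size), and outside the lists 15 rises and 15 falls with at least 3 passing probe sets. Their groups do not overlap in the shown probe set. Y-linked genes and 70 genes described before were left out of that naming. A few marker genes are named beside them. Lists are described by counts and medians, without a set test, and 95 list entries matched no measured gene. Of 58 lists, 57 are shown and 1 is not reported here. Precision is limited by having 7 arrays. Alternatives were another normalization, pseudocount, filter, variance model, array weights, replicate block, threshold, probe set choice and leaving out each array.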

Additional observations from a re-analysis of the deposited data

Results flagged for a closer look

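Among the 264 probe sets examined for an ETV1 array that stood apart from the other 3, 22 (8.33%) passed Dixon's 95% critical ratio. Its nominal rate is about 1 in 20. That rate is no baseline here, since most of these probe sets were chosen on the same arrays for passing without overlap between groups. Replicate D was the array in 18 of the 22, 12 times as the lowest and 6 times as the highest. The cause was not tested.

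As the lowest ETV1 array, replicate D read 916 for DDX10, 306 for SEC24D, 98.1 for SLIT2, 2451 for JAG1, 572 for FERMT2, 526 for LPCAT4, 375 for PLPP5, 143 for BDNF, 219 for ZNF621, 183 for OCLN, 379 for SERPINB1 and 140 for JMJD4. Without it the changes of SERPINB1 and SLIT2 were 2.03 and 1.94 on the log2 scale, against 1.68 and 1.74 with it. SERPINB1 passed in no fit that left out 1 array other than replicate D. As the highest, it read 263 for CAMK1D, 407 for BCL2L11, 520 for BAG4, 1475 for TM4SF1, 820 for CA12 and 308 for CXXC5. CAMK1D changed by 1.11 without replicate D, against 1.37 with it, and did not pass when any other array was left out. BAG4 did not pass without replicate D (0.60, limma adjusted p = 0.072), nor without control replicate B or ETV1 replicate A, B or C, nor with a pseudocount of 1.

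The remaining 4 were 65.8 for NUP210 on replicate C, 1570 for FARSB and 387 for RAB5C on replicate B, and 78.6 for ZNF117 on replicate A. ZNF117 did not pass without that array (-0.34, limma adjusted p = 0.068), nor without any of the other 6, nor with a pseudocount of 1 or all 10 arrays. OCLN passed only when replicate D was the array left out; FARSB lost its call in 5 of the 7 such fits, ZNF621 and BCL2L11 in 4 each and FERMT2 without control replicate B.

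Outside the probe sets of 1 gene, 3 of 62 Affymetrix control probe sets were higher in ETV1 arrays and 0 lower. Of 11721 probe sets that name no gene 166 were higher and 155 lower, and of 1801 that name several genes 59 were higher and 97 lower.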

How the results depend on the processing

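Against 5387 passing probe sets, 914 agreeing genes and 982 list members, quantile normalization gave 8196 (3786 higher, 4410 lower) with 1477 agreeing genes (740 and 737), and a filter to 23207 brighter probe sets raised agreeing falls to 744. limma's default array weights gave 19620 (8291 and 11329), 3248 (1296 and 1952) and 2321, but their estimation stopped before convergence and weighted control replicate B by 17.2 against 0.208 to 1.72 for the other arrays. Weights estimated gene by gene, chosen after seeing this, gave 9519 (3801 and 5718), 1727 (690 and 1037) and 1534. Leaving out probe sets marked by their ID as less specific gave 2865 (1298 and 1567), 284 (143 and 141) and 559, and at an adjusted p of 0.01 they were 1694 (924 and 770), 272 (156 and 116) and 315. With the replicate block they were 1597 (1005 and 592), 269 (184 and 85) and 303, and 147 of 259 named genes kept their call. Same-letter deviations correlated by 0.025, -0.001 and -0.035, and those of other pairs by -0.116 to 0.086. No label says what the letters mark, so whether they pair the arrays is not known. In the replicate block fit, ETV1 replicate D has no control array of its letter and adds nothing to the change. Leaving out 1 array gave 2379 to 7238 probe sets (1276 to 2432 higher, 987 to 4942 lower), 368 to 1286 agreeing genes (227 to 458 and 141 to 886) and 455 to 1259 list members; 161 of 259 named genes kept their call in all 7 such fits. ETV1 probe sets then ranged over 3.54 to 3.89 (217053_x_at), 2.58 to 2.81 (206501_x_at), 2.56 to 2.86 (217061_s_at), 0.06 to 0.21 (221910_at) and 0.05 to 0.33 (221911_at), and ETV5 over -0.23 to 0.14 (203349_s_at) and -0.16 to 0.31 (230102_at).

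Values that changed sign had not passed: 221911_at of ETV1 was -0.15 with default weights. ETV5 203349_s_at was 0.14, 0.06, 0.14 and 0.14, and ETV5 230102_at 0.20, 0.14, 0.31 and 0.31, with default weights, gene-by-gene weights, the block and without ETV1 replicate D. The latter was 0.06 without control replicate A. The causes were not tested. In a simulation with 3 and 4 arrays and 200 changed probe sets, changes near 0.5 on the log2 scale were mostly missed. Far more probe sets passed in the real data, 4415 of them with changes of at least 0.5, so the share missed there is not known.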

Other observations

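Genes of the Hippo pathway and targets of its effector YAP had 8 rises, 5 with agreement, and 4 falls among 37 (21.6% and 10.8%, beside 9.07% and 11.2% of all genes), with 6 to 9 rises when 1 array was left out. NF2, the upstream tumour suppressor merlin, read 43.8, 44.1 and 45.9 on control arrays and 80.5, 92.6, 85.7 and 80.1 on ETV1 arrays, and rose on 2 of 8 probe sets (0.73, SE 0.08, limma adjusted p = 0.0028). TEAD1, the DNA-binding partner of YAP, rose on 2 of 3 (0.57, SE 0.10). SCEL, sciellin of the cornified envelope, rose on 3 of 4 (2.30, SE 0.22), from 50.9, 87.0 and 35.6 to 335, 382, 320 and 298, and the serine protease PRSS23 on 3 of 4 (1.27, SE 0.10).

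Among falls outside the lists, LAPTM4B, a lysosomal membrane protein, fell on 4 of 4 probe sets (-1.07, SE 0.14), EMP2, an epithelial membrane protein, on 3 of 4 (-0.92, SE 0.12) and GPAA1, which attaches GPI anchors, on 3 of 3 (-1.08, SE 0.15). In signalling, RGS12, a regulator of G proteins, rose on 3 of 10 (0.70, SE 0.09), while GNAQ, a G protein alpha subunit, fell on 2 of 5 (-0.96, SE 0.12). EIF4EBP2, a brake on translation controlled by mTOR, fell on 3 of 5 (-0.94, SE 0.15). Its list of 53 PI3K, AKT and mTOR genes had 5 rises and 5 falls (9.43% each, beside 9.07% and 11.2% of all genes). Without 1 array there were 2 to 5 rises and 4 to 15 falls.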
